A study of Mus musculus with 12 samples.

Results

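The mRNA of 9 interferon-induced genes whose products act at or in membranes was examined in 4T1 cells, a carcinoma line of the mouse mammary gland (BALB/c strain). The genes were taken by symbol, with earlier results of these data known, from the 35521 genes with deposited estimates: *Bst2*, *Ifitm1*, *Ifitm2*, *Ifitm3*, *Rtp4*, *Rsad2*, *Cmpk2*, *Ifi27* and *Ifi27l2a*. Of these, 8 passed the filter on low counts, as did 12555 genes in all, and *Ifitm1* did not. The RNA-Seq libraries form 3 groups of 4. In the first, Tu-Gr1+CD11b+–primed 4T1 cells, the tumor cells had been kept for 48 hours across a Transwell membrane with pores of 0.4 µm from Gr1+ cells out of tumors of 4T1 tumor–bearing mice, Spl-Gr1+CD11b+–primed 4T1 cells had been kept in the same way with Gr1+ cells out of the spleens of such mice, and parental 4T1 cells had no partner cells. The sample labels say that Gr1+ cells were isolated on day 21 after injection, and the study's methods give a later day. No sample was genetically modified, and the tumor cells were lysed in their wells. Nothing states that the 4 libraries of a group came from separate cultures or mice, so p-values measure the spread between these libraries. Replicate libraries differed by more than sampling noise (chi-square per degree of freedom of at least 3.43), and each was counted as a sample.

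Cells that sense interferon switch on restriction factors that meet a virus at a membrane. Tetherin, made by *Bst2*, sits in the plasma membrane and holds budding particles on the cell surface. The IFITM proteins sit in the plasma and endosomal membranes and hinder fusion of the viral with the cellular membrane. Viperin, made by *Rsad2*, lies on the endoplasmic reticulum and on lipid droplets and turns CTP into an analog that ends viral RNA chains, and *Cmpk2*, its genomic neighbor, encodes a mitochondrial nucleotide kinase. *Rtp4* encodes a chaperone that brings G protein–coupled receptors to the cell surface and can also bind viral RNA. *Ifi27* and *Ifi27l2a* encode small hydrophobic proteins of the ISG12 family. In carcinoma cells these genes are known as readouts of interferon exposure and not only of infection.

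The members fall mostly into 3 clusters of related or neighboring genes (GRCm38, GENCODE M21). *Ifitm2* (chr7:140954837-140955987, minus strand), *Ifitm1* (chr7:140967221-140969825, plus strand) and *Ifitm3* (chr7:141009586-141010770, minus strand) share a stretch of 55934 bases. *Rsad2* (chr12:26442746-26456452, minus strand) and *Cmpk2* (chr12:26469204-26479837, plus strand) point away from each other with 12752 bases between their starts. *Ifi27* (chr12:103434211-103440239, plus strand) and *Ifi27l2a* (chr12:103442167-103443680, minus strand) face each other across 1928 bases. *Bst2* (chr8:71534255-71537456, minus strand) and *Rtp4* (chr16:23520291-23614222, plus strand) stand alone, and the start of *Rtp4* overlaps *Masp1* on the opposite strand, where reads of both could be confused if strand was not used in counting.

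Promoter sequences of the members are shown as a description, and a link to their levels was not tested. RefSeq windows (GRCm38.p6) from 250 bases before to 50 bases after the start of transcription were given for 6 of the 9 members. *Rtp4*, *Ifi27* and *Ifi27l2a* had none. They were searched on both strands for the core of an interferon-stimulated response element, taken as GAAA, any 2 bases and GAAA, which 3.44% of 32851 such windows hold. It was present in 4 of the 6 windows, in *Bst2*, *Ifitm2*, *Ifitm3* and *Rsad2*, and these letters were not in the windows of *Ifitm1* and *Cmpk2*. Below, capitals mark the core, the stretches end at the RefSeq start or before the first annotated exon, and each is written 5′ to 3′ on the strand of its gene.
*Bst2*, before the start, chr8:71537473-71537622, minus strand: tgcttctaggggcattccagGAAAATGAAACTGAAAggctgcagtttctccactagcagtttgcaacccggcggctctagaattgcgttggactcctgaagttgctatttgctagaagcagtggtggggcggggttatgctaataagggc
*Ifitm2*, before the start, chr7:140955988-140956111, minus strand: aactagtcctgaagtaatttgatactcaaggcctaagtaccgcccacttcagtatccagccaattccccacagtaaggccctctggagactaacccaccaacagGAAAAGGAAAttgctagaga
*Ifitm3*, before the start, chr7:141010771-141010894, minus strand: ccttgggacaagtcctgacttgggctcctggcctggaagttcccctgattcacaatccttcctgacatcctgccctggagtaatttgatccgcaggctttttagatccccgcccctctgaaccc
*Ifitm3*, first transcribed bases, chr7:141010715-141010744, minus strand: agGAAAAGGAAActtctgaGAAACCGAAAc
*Rsad2*, before the start, chr12:26456453-26456602, minus strand: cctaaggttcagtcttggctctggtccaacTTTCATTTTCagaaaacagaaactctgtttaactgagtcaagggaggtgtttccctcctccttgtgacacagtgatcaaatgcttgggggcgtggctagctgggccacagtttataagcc
*Cmpk2*, before the start, chr12:26469065-26469203, plus strand: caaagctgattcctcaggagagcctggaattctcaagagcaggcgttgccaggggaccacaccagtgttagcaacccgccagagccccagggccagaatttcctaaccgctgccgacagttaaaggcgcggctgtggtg
In *Bst2* a pair of overlapping cores began at positions −130 and −124, counted from the RefSeq start. In *Ifitm2* a single core began at position −46. In *Ifitm3* both cores lay after the RefSeq start, beginning at positions 3 and 20 of the transcript, and they are shown as the first 30 transcribed bases. In *Rsad2* the core was on the opposite strand and began at position −120. At least 2 matches, as in *Bst2* and *Ifitm3*, were present in 0.225% of the windows. The core of a gamma-activated site, TTC, any 3 bases and GAA, which reads the same on both strands and was present in 8.3% of windows, began at position −136 of *Bst2*, sharing bases with the first of its cores, and at position 14 of *Ifitm3*, between its cores and sharing bases with the second. A match is a description of letters and does not show that a factor binds there. Of the members with the first core, *Bst2*, *Ifitm3* and *Rsad2* were called higher between the primed groups and *Ifitm2* was not. *Cmpk2*, without it, was also called higher.

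The label of the cells was checked against marker genes. Library totals ranged from 24566183 to 31637755 reads. All 9 epithelial markers passed the filter, with summed levels between 1920 and 2360 CPM (counts scaled to a common library size after TMM normalization) in Tu-Gr1+CD11b+–primed, 2410 and 2600 in Spl-Gr1+CD11b+–primed and 2680 and 4000 in parental cells. Most of this sum came from *Krt8*, *Krt18* and *Krt7*, at means of 871, 681 and 279 CPM in Tu-Gr1+CD11b+–primed cells. The groups did not overlap in the sum, and its part in the members' differences was not tested. By edgeR, 0 of the 9 markers were called between the primed groups, with 6 lower at an unadjusted p under 0.05. Over parental cells, 1 was called higher and 5 lower in the Tu-Gr1+CD11b+–primed group (31.2% and 28% of all tested genes). In the Spl-Gr1+CD11b+–primed group 2 were higher and 4 lower (25.7% and 22.5%). Of 7 general leukocyte markers, *Tyrobp* had 0 reads in every library, whereas *Itgb2* was measured at means of 230 CPM in Tu-Gr1+CD11b+–primed, 236 in Spl-Gr1+CD11b+–primed and 185 in parental cells and made up nearly the whole sum.

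The members' levels in all 12 libraries show 3 patterns. Of the tested members, 6 were lower in every parental and Spl-Gr1+CD11b+–primed library than in all 4 Tu-Gr1+CD11b+–primed libraries, *Ifitm3* was abundant in every group and higher still in the Tu-Gr1+CD11b+–primed group, and *Ifitm2* was abundant and lay within a narrow range. In the comparison of Tu-Gr1+CD11b+–primed with Spl-Gr1+CD11b+–primed cells, the tested members gave 7 higher calls of 8 and 0 lower ones (edgeR's quasi-likelihood test on counts, Benjamini-Hochberg over 12555 genes, threshold 0.05). Of all tested genes, 4.66% were called higher and 2.97% lower. The 7 members were also those whose groups did not overlap, each Tu-Gr1+CD11b+–primed library lying above each Spl-Gr1+CD11b+–primed library, a pattern that 8.51% of tested genes had. The median log2 fold change of the 8 members was 2.5, beside −0.01 over all tested genes. *Ifi27l2a* passed the filter through the Tu-Gr1+CD11b+–primed libraries alone, so that it could enter the test only by being high there. Among the genes that also passed in the other 8 libraries, 6 of 7 members were called higher, beside 4.51% of 12275 genes, with a median of 2.45. DESeq2 and limma-voom also called 0 members lower, as did an unadjusted p under 0.05. *Ifi27l2a*, *Rtp4*, *Bst2*, *Cmpk2* and *Ifi27* belong to the signature that the study drew from these same libraries by this contrast, so their direction here is not independent evidence.

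**Figure D1:**
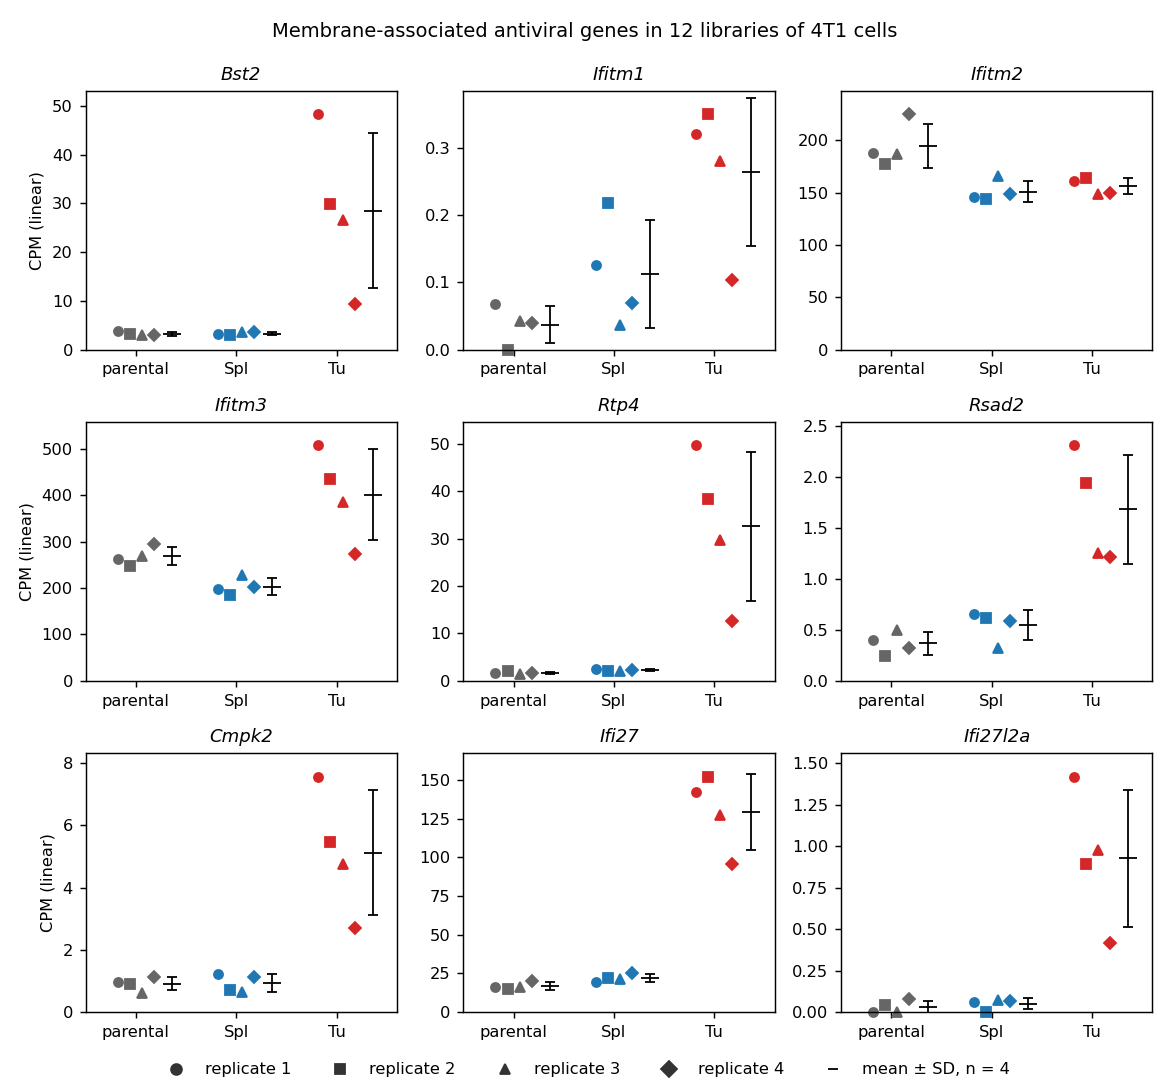
Levels of the 9 members on linear axes in CPM, with 1 point per library, 4 libraries per group (parental, Spl-Gr1+CD11b+–primed and Tu-Gr1+CD11b+–primed 4T1 cells), point shapes for the replicate number and bars for the mean ± SD. *Bst2*, *Rtp4*, *Rsad2*, *Cmpk2*, *Ifi27* and *Ifi27l2a* are higher in each Tu library than in any other, *Ifitm3* is abundant everywhere, and *Ifitm2* is highest in the parental group.

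*Bst2*, the gene of tetherin, was measured at 48.3, 29.9, 26.6 and 9.34 CPM in replicates 1 to 4 of Tu-Gr1+CD11b+–primed cells. The Spl-Gr1+CD11b+–primed libraries had 3.14, 2.94, 3.56 and 3.55 CPM and the parental ones 3.84, 3.13, 2.94 and 3.08 CPM. The lowest Tu-Gr1+CD11b+–primed library thus stood above all 8 others, and the highest was 5.17-fold above the lowest of its own group. The log2 fold change was 3.11 ± 0.36 (SE, 8.65-fold, adjusted p = 0.000114) over Spl-Gr1+CD11b+–primed and 3.13 ± 0.37 (adjusted p = 1.08e-05) over parental cells. Between the Spl-Gr1+CD11b+–primed and parental groups it was 0.01, with a 95% confidence interval from −0.89 to 0.92 (adjusted p = 0.981). Nearly all of its counts, 99.9% in Tu-Gr1+CD11b+–primed and 100% in the other cells, fell on the coding transcript Bst2-201. No 31-base word of its transcripts occurs in another annotated gene.

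*Ifitm3*, whose protein guards late endosomes, had the highest level per length of the 9 in each group. Its Tu-Gr1+CD11b+–primed libraries had 507, 435, 386 and 274 CPM, the Spl-Gr1+CD11b+–primed ones 198, 185, 227 and 201 CPM and the parental ones 263, 247, 270 and 294 CPM. Each Tu-Gr1+CD11b+–primed library was above each Spl-Gr1+CD11b+–primed one, while replicate 4 fell within the parental range. It rose by a log2 fold change of 0.98 ± 0.14 (SE, 1.97-fold, adjusted p = 0.00051) over Spl-Gr1+CD11b+–primed and of 0.58 ± 0.14 (1.49-fold, adjusted p = 0.00255) over parental cells.

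*Ifitm2*, its close relative in the same cluster, behaved otherwise. It was measured at 162, 164, 149 and 150 CPM in the Tu-Gr1+CD11b+–primed, at 146, 144, 166 and 149 CPM in the Spl-Gr1+CD11b+–primed and at 188, 178, 187 and 225 CPM in the parental libraries. The primed groups lay within each other's range, with a log2 fold change of 0.05 (95% confidence interval from −0.11 to 0.21, adjusted p = 0.756). Against parental cells *Ifitm2* fell by 0.32 on the log2 scale in Tu-Gr1+CD11b+–primed cells (SE 0.07, adjusted p = 0.00219). On the scale of TPM (which also divides by transcript length) this direction flips to 0.15 higher (limma on log2(TPM + 1), adjusted p = 0.0248). On that scale the median of all tested genes itself lay 0.40 higher in Tu-Gr1+CD11b+–primed and 0.34 higher in Spl-Gr1+CD11b+–primed than in parental cells, so that *Ifitm2* remained below that median.

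The ratio of *Ifitm3* to *Ifitm2* within a library needs no scaling between libraries. It was 3.14, 2.66, 2.58 and 1.83 in Tu-Gr1+CD11b+–primed cells, and lay between 1.29 and 1.37 in Spl-Gr1+CD11b+–primed and between 1.31 and 1.44 in parental cells. The Tu-Gr1+CD11b+–primed group stood clear of both others. Its mean log2 ratio was 1.32 ± 0.33 (SD, n = 4), beside 0.42 ± 0.04 and 0.47 ± 0.06 (SD, n = 4 each). The difference of 0.90 from Spl-Gr1+CD11b+–primed cells and that of 0.86 from parental cells each had the smallest p that 4 libraries against 4 allow (exact two-sided permutation test, p = 0.0286, adjusted p = 0.0715 over 15 tests of 5 gene pairs). Of these 15 tests, 0 passed after adjustment and 6 had an unadjusted p under 0.05. Between Spl-Gr1+CD11b+–primed and parental cells the ratio differed by −0.04 (exact permutation p = 0.286, adjusted p = 0.357).

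**Figure D2:**
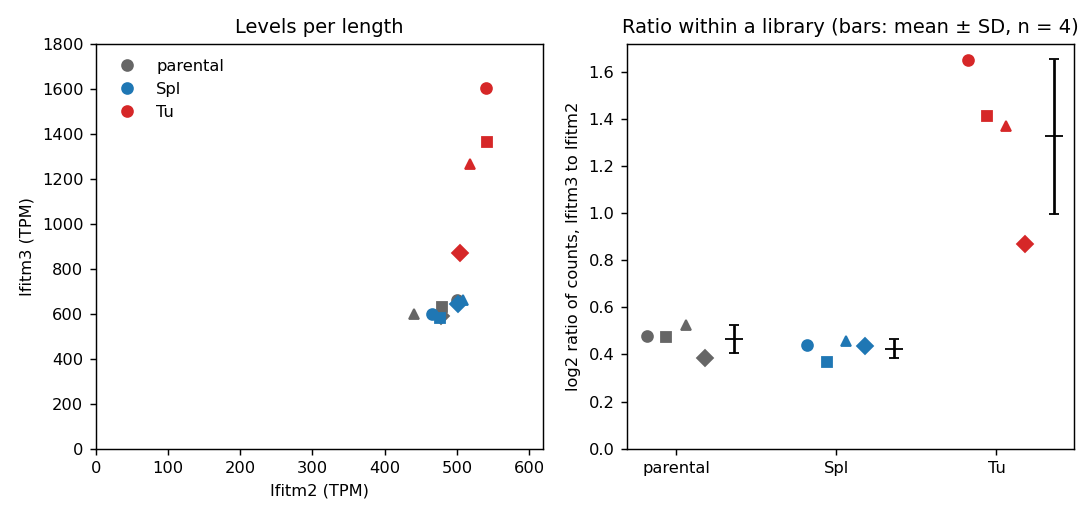
Left, *Ifitm3* against *Ifitm2* in TPM, 1 point per library (grey parental, blue Spl-Gr1+CD11b+–primed, red Tu-Gr1+CD11b+–primed; shapes mark the replicate number). Right, the log2 ratio of *Ifitm3* to *Ifitm2* counts by group, with the mean ± SD of 4 libraries. *Ifitm3* ranges from 872 to 1604 TPM in the Tu group and from 581 to 661 TPM in the other libraries, at *Ifitm2* levels of 440 to 542 TPM.

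*Ifitm1* was near the detection limit. It had 9, 9, 8 and 3 counts in the Tu-Gr1+CD11b+–primed, 4, 6, 1 and 2 in the Spl-Gr1+CD11b+–primed and 2, 0, 1 and 1 in the parental libraries, and was not tested with the other genes. The lowest Tu-Gr1+CD11b+–primed library had fewer counts than the highest Spl-Gr1+CD11b+–primed ones. Over the summed counts, 29 against 13 and 4, the ratio was 2.32 to Spl-Gr1+CD11b+–primed (95% exact interval from 1.17 to 4.86) and 6.69 to parental cells (from 2.35 to 26.2), where the intervals cover counting error and not the spread between libraries. Reads of the IFITM genes can be shared: 55.5% of the 31-base words of *Ifitm2*, 20.5% of those of *Ifitm3* and 11.6% of those of *Ifitm1* also occur in other annotated genes. For *Ifitm2* the largest part was 238 of 625 words in the overlapping gene *Gm45717*, which was assigned at most 1 count in a library, and 39 words were shared between *Ifitm2* and *Ifitm3*. For *Ifitm1* and *Ifitm3* the largest part was in *Gm7676*, which was assigned 0 counts in every library. A share of words is not the size of an error in the counts, and the effect on these estimates was not tested.

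*Rtp4*, the receptor chaperone, showed the largest fold change of the members with counts in every library. Its Tu-Gr1+CD11b+–primed libraries had 49.6, 38.4, 29.6 and 12.5 CPM, the Spl-Gr1+CD11b+–primed ones 2.6, 2.14, 2.0 and 2.26 CPM and the parental ones 1.58, 2.02, 1.47 and 1.64 CPM. No Tu-Gr1+CD11b+–primed library overlapped either group. The log2 fold change was 3.84 ± 0.34 (SE, 14.4-fold, adjusted p = 1.44e-05) over Spl-Gr1+CD11b+–primed cells, the 14th highest of 12555 genes, and 4.28 ± 0.36 (19.4-fold, adjusted p = 6.81e-07) over parental cells. Between the Spl-Gr1+CD11b+–primed and parental groups it was 0.43, with an interval from −0.51 to 1.37 (adjusted p = 0.439). Rtp4-203 held 80.1% of its counts in the Tu-Gr1+CD11b+–primed, 69.7% in the Spl-Gr1+CD11b+–primed and 86.9% in the parental group. Of its 31-base words, 12.5% also occur in *Gm45338*, and the effect on its estimate was not tested.

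*Rsad2* and *Cmpk2*, the neighbors that encode viperin and a mitochondrial nucleotide kinase, rose together at unequal levels. *Rsad2* had 65, 50, 36 and 35 counts in the Tu-Gr1+CD11b+–primed, 21, 17, 9 and 17 in the Spl-Gr1+CD11b+–primed and 12, 6, 12 and 8 in the parental libraries, so that its level stayed low in every group. On the CPM scale the Tu-Gr1+CD11b+–primed values of 2.31, 1.94, 1.26 and 1.22 did not overlap with those of 0.327 to 0.659 in Spl-Gr1+CD11b+–primed cells. The log2 fold change was 1.60 ± 0.29 (SE, 3.03-fold, adjusted p = 0.00345) over Spl-Gr1+CD11b+–primed and 2.17 ± 0.31 (adjusted p = 5.13e-05) over parental cells. The first of these calls was lost where transcript lengths entered the analysis (log2 fold change 1.02, edgeR adjusted p = 0.29 with length offsets). In Spl-Gr1+CD11b+–primed replicate 1, 13.3% of its counts were assigned to a processed transcript that the other 11 libraries did not use, and its TPM there was 0.836, against 0.115 to 0.235 in the other Spl-Gr1+CD11b+–primed libraries.

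*Cmpk2* was measured at 7.56, 5.48, 4.75 and 2.71 CPM in the Tu-Gr1+CD11b+–primed, at 1.22, 0.726, 0.654 and 1.11 CPM in the Spl-Gr1+CD11b+–primed and at 0.977, 0.906, 0.629 and 1.12 CPM in the parental libraries. Each Tu-Gr1+CD11b+–primed library was above the 8 others, which overlapped among themselves. The log2 fold change was 2.45 ± 0.30 (SE, 5.45-fold, adjusted p = 0.000163) over Spl-Gr1+CD11b+–primed and 2.48 ± 0.31 (adjusted p = 1.53e-05) over parental cells. The log2 ratio of *Cmpk2* to *Rsad2* counts was 1.56 ± 0.32 in Tu-Gr1+CD11b+–primed and 0.74 ± 0.34 in Spl-Gr1+CD11b+–primed cells (SD, n = 4 each; exact two-sided permutation p = 0.0286, adjusted p = 0.0715), and 1.27 ± 0.69 in parental cells, which overlapped with both. The difference of 0.82 between the primed groups was 1.49 with TPM and 2.24 with coding transcripts alone. In Spl-Gr1+CD11b+–primed replicate 4, all 32 *Cmpk2* counts were assigned to retained-intron transcripts and none to the coding one. With coding transcripts alone, the ratio in that library thus rests on the small count added before taking logs.

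*Ifi27*, the more abundant ISG12 gene, had the smallest p of all 12555 genes in the comparison of the primed groups. It was measured at 142, 152, 127 and 95.7 CPM in the Tu-Gr1+CD11b+–primed, at 19.5, 22.0, 21.2 and 25.4 CPM in the Spl-Gr1+CD11b+–primed and at 16.1, 14.9, 16.1 and 20.4 CPM in the parental libraries. Its Tu-Gr1+CD11b+–primed libraries were close to one another, with the highest 1.59-fold above the lowest. The log2 fold change was 2.55 ± 0.14 (SE, 5.87-fold, adjusted p = 3.58e-07) over Spl-Gr1+CD11b+–primed and 2.93 ± 0.14 (7.64-fold, adjusted p = 1.38e-08) over parental cells. It was the one member called higher in Spl-Gr1+CD11b+–primed than in parental cells, by 0.38 ± 0.14 (SE, 1.30-fold, adjusted p = 0.0374), although those groups overlapped.

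*Ifi27* has 9 annotated transcripts, 6 coding and 3 with a retained intron. The retained-intron transcripts held 24.1%, 27.2%, 23.6% and 24.4% of its counts in the Tu-Gr1+CD11b+–primed, 30.2%, 41.4%, 32.6% and 32.9% in the Spl-Gr1+CD11b+–primed and 8.5%, 15.3%, 30.2% and 0% in the parental libraries. The share was thus lower in each Tu-Gr1+CD11b+–primed than in each Spl-Gr1+CD11b+–primed library, and it ranged widely in parental cells. These shares are estimates from overlapping transcripts and were not tested. With coding transcripts alone, the difference between Spl-Gr1+CD11b+–primed and parental cells was 0.01 (adjusted p = 0.963), and that between the primed groups 2.75 (adjusted p = 3.74e-06).

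**Figure D3:**
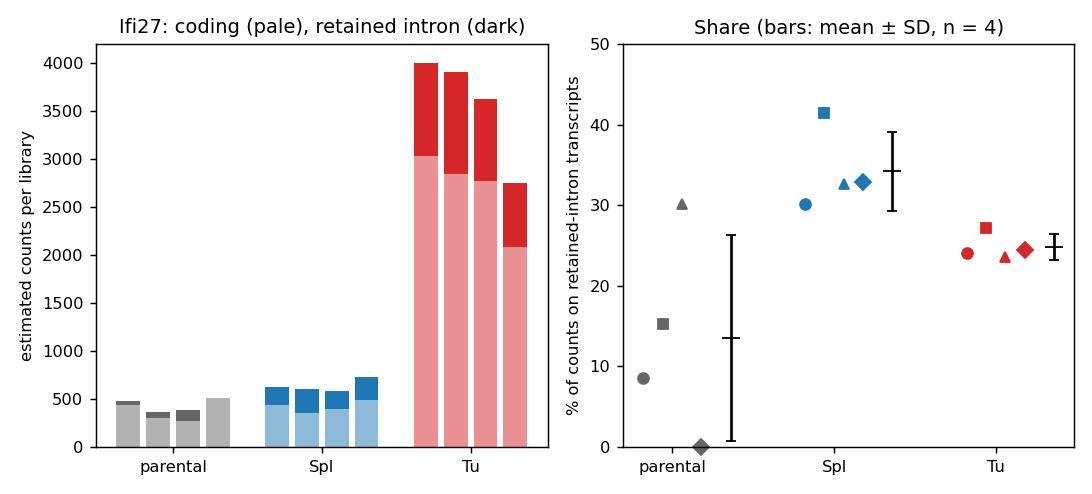
Left, estimated *Ifi27* counts in each of 12 libraries, divided into coding (pale) and retained-intron (dark) transcripts. Right, the retained-intron share in percent, 1 point per library with the mean ± SD of 4. The share is 24.8% ± 1.62 in the Tu, 34.2% ± 4.93 in the Spl and 13.5% ± 12.8 in the parental group (SD, n = 4 each).

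*Ifi27l2a*, next to *Ifi27*, was rare. It had 40, 23, 28 and 12 counts in the Tu-Gr1+CD11b+–primed, 2, 0, 2 and 2 in the Spl-Gr1+CD11b+–primed and 0, 1, 0 and 2 in the parental libraries. Each Tu-Gr1+CD11b+–primed library was well above the others, of which 3 had a count of 0, a value that allows up to 3 counts. Over the summed counts, 103 against 6 and 3, the ratio was 17.8 to Spl-Gr1+CD11b+–primed (95% exact interval for counting error from 7.92 to 49.7) and 31.7 to parental cells (from 10.5 to 156). The fitted log2 fold change over Spl-Gr1+CD11b+–primed cells was 4.05 ± 0.58 (SE, adjusted p = 0.000568), a value that depends on the prior count added to such low libraries and on a gene admitted by the group in which it is high. It was 2.33 on log2(TPM + 1). Parental replicate 4 held 2 of the 3 parental counts, and without it the fitted value over parental cells moved from 4.78 to 5.74. *Ifi27* and *Ifi27l2a* share no 31-base word.

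Against parental cells, the Tu-Gr1+CD11b+–primed group had 7 of 8 tested members called higher and *Ifitm2* called lower (edgeR, as above), where 31.2% of all tested genes were called higher and 28% lower. In 6 of the members called higher no library overlapped with a parental one (28.6% of tested genes), and so it was for *Ifitm2* in the other direction (26.9%). *Ifi27l2a* is in both of these higher counts and entered the test through the Tu-Gr1+CD11b+–primed libraries alone. Among the genes that also passed the filter without those libraries, 6 of 7 members were called higher, beside 30.9% of 12275 genes. In Spl-Gr1+CD11b+–primed against parental cells, *Ifi27* was called higher, where 25.7% of tested genes were, and *Ifitm2* and *Ifitm3* lower, where 22.5% were. *Ifitm2* fell by 0.36 on the log2 scale (SE 0.07, adjusted p = 0.00123) and *Ifitm3* fell by 0.40 (SE 0.14, adjusted p = 0.0269), and neither overlapped between the groups, as did 18.3% of tested genes in that direction. On the TPM scale these differences were 0.04 and −0.0011 (limma, adjusted p = 0.52 and adjusted p = 0.995). The *Ifi27* call failed without Spl-Gr1+CD11b+–primed replicate 2, 3 or 4 or parental replicate 1, 2 or 3 (edgeR adjusted p between 0.0609 and 0.116), and the *Ifitm3* call without Spl-Gr1+CD11b+–primed replicate 1, 2 or 4 or parental replicate 3 or 4 (between 0.0537 and 0.0752). The 3 comparisons share libraries and are not independent of one another.

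**Figure D4:**
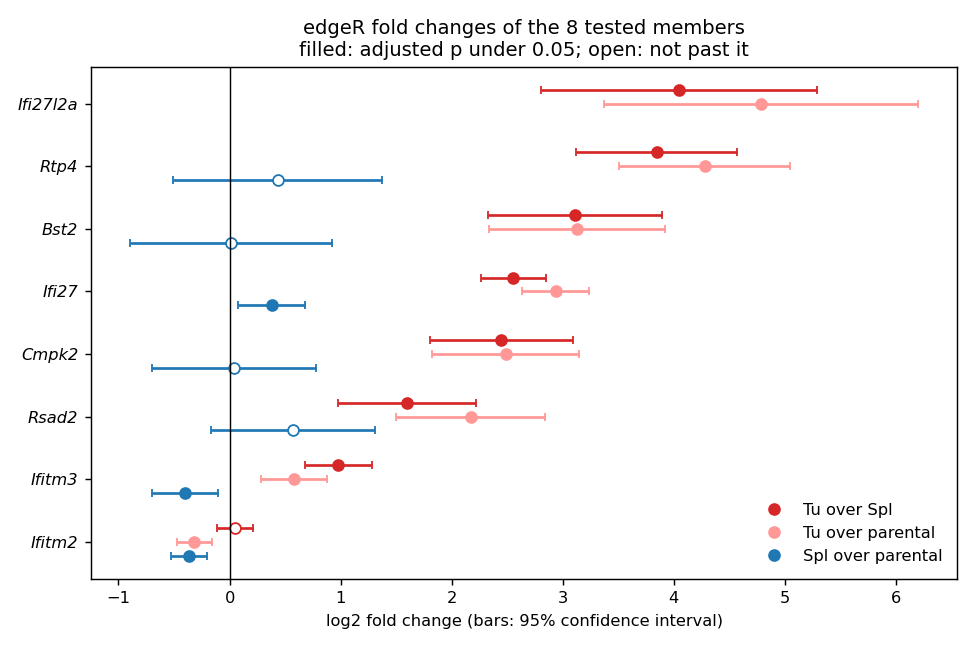
Log2 fold changes of the 8 tested members in 3 comparisons, with 95% confidence intervals from the edgeR fit of 12 libraries. Filled points passed an adjusted p of 0.05 and open points did not. *Ifi27l2a* between Spl-Gr1+CD11b+–primed and parental cells is left out because no library of either group had more than 2 counts. Apart from *Ifitm2*, the members stand to the right of 0 for Tu over Spl, between 0.98 and 4.05.

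Levels per length, in TPM, kept nearly the same order in the groups. *Ifitm3* was highest with 1277 ± 305 TPM (SD, n = 4) in Tu-Gr1+CD11b+–primed, 620 ± 37.0 in Spl-Gr1+CD11b+–primed and 621 ± 31.6 in parental cells. *Ifitm2* was second with 526 ± 18.1, 488 ± 20.3 and 474 ± 24.9 TPM, and *Ifi27* was next with 362 ± 71.0, 64.1 ± 9.65 and 29.9 ± 1.90 TPM. In every group these 3 levels did not overlap, and *Bst2* and *Rtp4* came after them. *Bst2*, at 72.1 ± 39.9 TPM in Tu-Gr1+CD11b+–primed cells, overlapped there with *Rtp4* at 51.3 ± 24.5 TPM, while in the other groups *Bst2* was above *Rtp4* in every library. *Cmpk2*, *Rsad2*, *Ifitm1* and *Ifi27l2a* lay at the bottom, with means between 0.312 and 0.412 TPM in Spl-Gr1+CD11b+–primed and between 0.0856 and 0.306 TPM in parental cells, where neighbors in the order overlapped. In Tu-Gr1+CD11b+–primed cells *Ifi27l2a* at 5.93 ± 2.62 TPM and *Cmpk2* at 3.65 ± 2.79 TPM stood, without overlap, above *Ifitm1* and *Rsad2*, which overlapped with each other at 0.682 ± 0.297 and 0.648 ± 0.197 TPM. The *Cmpk2* mean leans on replicate 2, with 7.605 TPM from 141 counts, beside 3.474 TPM from 213 counts in replicate 1. Retained-intron transcripts held 10.6% and 4.23% of these counts, and their effect on TPM was not tested.

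The Tu-Gr1+CD11b+–primed libraries differed in how far the members rose. Replicate 4 was the lowest of its group for 8 of the 9 members and *Ifitm2* was the exception, while replicate 1 was the highest for 6 of the 9. For *Bst2*, replicates 1 to 4 stood 14.6-, 9.07-, 8.08- and 2.83-fold above the Spl-Gr1+CD11b+–primed mean, and for *Rtp4* 22.0-, 17.1-, 13.2- and 5.56-fold. For *Ifi27* the same values were narrower, at 6.45-, 6.91-, 5.77- and 4.35-fold. Averaged over the 8 tested members, log2 CPM (prior count 2) lay 2.73, 2.42, 2.19 and 1.5 above the parental mean in replicates 1 to 4. A list of 24 cytosolic interferon-stimulated genes had 3.47, 2.97, 2.70 and 1.63 in the same libraries, so that replicate 4 was lowest on both lists. Both averages include genes that passed the filter through the Tu-Gr1+CD11b+–primed libraries alone, *Ifi27l2a* among the members and 4 on the list, which raises their height above the parental mean. The depth of replicate 4, 27568940 reads, was the highest of its group, and what set it apart was not tested. The 7 calls over Spl-Gr1+CD11b+–primed cells were kept with any single library left out, and the log2 fold change ranged from 2.73 without replicate 1 to 3.41 without replicate 4 for *Bst2* and from 3.57 to 4.11 for *Rtp4*.

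**Figure D5:**
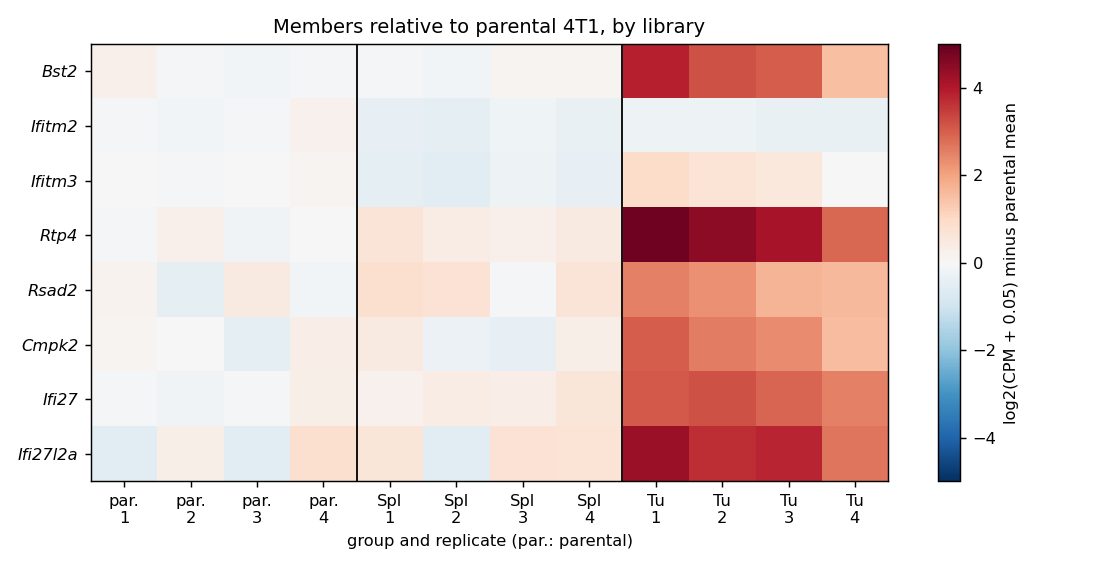
The 8 tested members in each of 12 libraries, as log2(CPM + 0.05) minus the mean of the parental libraries (red above, blue below). The Tu libraries are red for the members other than *Ifitm2* and, in replicate 4, *Ifitm3*, and replicate 4 is the palest of them for most members.

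Other genes whose products act at membranes against viruses changed in part. Of 20 genes on that list, 19 were tested. Between the primed groups, 10 were higher and 1 lower in the Tu-Gr1+CD11b+–primed group by the same test, with a median log2 fold change of 0.20. Of all tested genes, 4.66% were called higher and 2.97% lower there. *Gbp5* passed the filter through the Tu-Gr1+CD11b+–primed libraries alone, and without it 9 of 18 were higher, beside 4.51% of 12275 genes. The largest were *Apol9a* at 3.55 ± 0.31 (SE, adjusted p = 1.44e-05) and *Apol9b* at 2.61 ± 0.27 (adjusted p = 4.87e-05), of the apolipoprotein L family. Of 11 relatives of the members, such as *Ifitm6* and *Cmpk1*, 4 were tested and 0 were called between the primed groups by edgeR, with 2 at an unadjusted p under 0.05. *Ifitm6* had means of 1.65 CPM in Tu-Gr1+CD11b+–primed, 0.712 in Spl-Gr1+CD11b+–primed and 0.725 in parental cells (log2 fold change 1.21 ± 0.40, adjusted p = 0.0794 over Spl-Gr1+CD11b+–primed cells, and 1.17 ± 0.40, adjusted p = 0.0213 over parental cells) and was picked after its values were seen. Genes for proteins that process or bind IFITM proteins and viperin, 10 in all and among them *Nedd4* and *Zdhhc20*, were tested, and 0 were called between the primed groups by edgeR, with 2 at an unadjusted p under 0.05.

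Genes of the interferon pathway were read in the same comparison. Of 17 genes for receptors, kinases, transcription factors and inhibitors 16 were tested, with a median log2 fold change of 0.23. In the Tu-Gr1+CD11b+–primed group 7 of them were called higher, where 4.66% of all tested genes were. The largest were *Usp18*, an inhibitor of receptor signaling, at 4.84 ± 0.62 (SE, adjusted p = 0.000229) and *Irf7*, a transcription factor, at 4.33 ± 0.40 (adjusted p = 2.42e-05). Of the 24 cytosolic interferon-stimulated genes 21 were called higher, with a median log2 fold change of 2.56, close to that of the members. *Oas2* at 5.93 ± 0.72 (adjusted p = 0.000154) and *Ifi44* at 5.57 ± 0.56 (adjusted p = 3.72e-05) were the largest. *Oas2*, *Mx1*, *Mx2* and *Ifit3b* passed the filter through the Tu-Gr1+CD11b+–primed libraries alone, and of the 20 others 17 were called higher, with a median of 2.42. *Irf7*, *Mx1* and others on these lists belong to the study's signature from this same contrast. Their direction here is thus not independent evidence either. Of 10 genes for interferons themselves 0 could be tested: 7 had no count in any library and the list summed to 2, 3 and 0 counts in the Tu-Gr1+CD11b+–primed, Spl-Gr1+CD11b+–primed and parental groups.

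Among genes that are not members, the 3 whose levels followed the members' mean most closely over the 12 libraries were *Lgals9*, *Slfn2* and *Apol9b*, with root mean square differences of 0.20, 0.21 and 0.23 between centered log2 CPM values. *Lgals9* had means of 33.0, 7.12 and 7.92 CPM in the Tu-Gr1+CD11b+–primed, Spl-Gr1+CD11b+–primed and parental groups. Among the members, *Cmpk2* was closest to the mean they share (0.22) and *Ifitm2* farthest from it (1.12).

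Markers of the partner cells were low, and some moved with the members. Of 14 neutrophil markers 7 had no count in any library, *Ngp*, *Camp* and *Retnlg* among them. The list summed to between 154 and 188 CPM in Tu-Gr1+CD11b+–primed, 134 and 152 in Spl-Gr1+CD11b+–primed and 126 and 132 in parental cells, most of it from *Mmp9*, which tumor cells also make. *S100a8* (log2 fold change 0.93 ± 0.24 SE, adjusted p = 0.027) and *Ltf* (1.16 ± 0.17, adjusted p = 0.00082) passed the test as higher in the Tu-Gr1+CD11b+–primed than in the Spl-Gr1+CD11b+–primed group, at means of 2.83 and 4.16 CPM, and both were expressed in parental cells at 1.84 and 1.79 CPM. Of 11 monocyte and macrophage markers 5 had no count, *Adgre1* among them, and the sum lay between 5.38 and 6.39 CPM in Tu-Gr1+CD11b+–primed, 3.44 and 4.87 in Spl-Gr1+CD11b+–primed and 4.07 and 4.84 in parental cells. The part of such cells in the members' levels was not tested. In bulk RNA, fewer cells that express a gene and less RNA of it per cell cannot be told apart.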

How the data were processed

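The authors deposited 1 Salmon output per library (12 in all), in which every Ensembl transcript has an estimated count without normalization. TPM values stand beside it as deposited, corrected by Salmon for length and depth, together with effective lengths. The submitters' processing notes name FastQC, Trimmomatic 0.39 and Salmon 1.4.0 and the build GRCm38 (mm10). The kit is stranded, and the strand setting of the quantification is not given in the sources used here. A series table of normalized values was not used.

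Estimated counts were summed per gene with the GENCODE M21 annotation, in which 116021 of 117081 listed transcripts were found, and rounded. Genes were filtered with filterByExpr, scaled by TMM and tested by edgeR's quasi-likelihood test (edgeR 4.0.16, R 4.3.3) in a single fit of 12 libraries without a replicate term. Benjamini-Hochberg adjustment was over 12555 genes, with a threshold of 0.05. On simulated counts of the same size (12449 genes), the fit found 184 of 197 genes changed 2-fold and called 13 unchanged ones. CPM used TMM-scaled library sizes. Intervals for few counts are exact binomial intervals and cover counting error alone. Ratios of gene pairs within a library (prior count 0.5) were compared by exact permutation. Promoter windows are from RefSeq (GRCm38.p6). Shared words of 31 bases were counted in the GENCODE M21 transcripts. Python 3.11.15 with pandas, scipy and matplotlib was used for tables and plots.

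The members and the gene lists were chosen with earlier results of these data known. Every member was named. In each list the 2 genes with the largest change among those called between the primed groups could be named, and the 3 genes closest to the members' mean, and marker genes and *Nedd4*, *Zdhhc20*, *Cmpk1*, *Ifitm6*, *Gbp5*, *Mx1*, *Mx2* and *Ifit3b* were named beyond that rule. The alternatives tried comprised other tests (DESeq2, limma-voom), other scalings (RLE, upper quartile), looser and stricter filters (none, 10 counts per library), a fit of the 8 libraries in a comparison, a replicate block, a prior count of 2 for pair ratios, coding transcripts only, length offsets, limma on log2(TPM + 1), stricter thresholds, leaving out each library and, chosen after seeing the data, only genes that pass the filter without the Tu-Gr1+CD11b+–primed libraries. The result of 1 gene is not reported here.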

Additional observations from a re-analysis of the deposited data

Results flagged for a closer look

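Of the members' levels in the 3 groups, 1 value lay apart from the rest of its group by Dixon's test. The test was run on 27 sets, each of 1 member in 1 group, and chance alone would flag about 1 of 20 such sets. *Ifi27l2a* had 0 CPM in Spl-Gr1+CD11b+–primed replicate 2, where the nearest library had 0.0628 CPM. The gap was 0.864 of the group's range, and it stands for 0 counts against 2 counts, fewer than the 3 counts that a count of 0 allows.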

How the results depend on the processing

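Over the alternatives, the count of higher calls in Tu-Gr1+CD11b+–primed over Spl-Gr1+CD11b+–primed cells stayed between 5 and 7 and that over parental cells between 5 and 8, with 5 under the filter of at least 10 counts, which tests fewer members. The 8 arose without a filter, which added *Ifitm1* at its few counts, and on log2(TPM + 1), which added *Ifitm2*. *Rsad2* lost its call over Spl-Gr1+CD11b+–primed cells with length offsets (1.02, adjusted p = 0.29) and on log2(TPM + 1) (0.30, adjusted p = 0.327). On log2(TPM + 1), *Ifitm2* turned to 0.15 in Tu-Gr1+CD11b+–primed and 0.0412 in Spl-Gr1+CD11b+–primed over parental cells, and 0 members were called lower in either comparison. On that scale 96.3% of all calls over parental cells were higher in the Tu-Gr1+CD11b+–primed group, beside 52.7% by edgeR, 98.4% beside 53.3% in the Spl-Gr1+CD11b+–primed group and 88.8% beside 61.1% between the primed groups. The cause was not tested. Over all genes, edgeR called 585 higher and 373 lower between the primed groups, against 349 and 146 with length offsets and 326 and 41 on log2(TPM + 1). Over parental cells, 3919 higher and 3515 lower calls became 8213 and 317 on that scale in Tu-Gr1+CD11b+–primed cells, and 3225 and 2828 became 7348 and 117 in Spl-Gr1+CD11b+–primed cells. With single libraries left out, the lower calls between the primed groups ranged from 118 to 531. When the log2 fold change also had to exceed 1 in size, 0 members were called lower in either primed group. *Ifi27*, the member called higher in Spl-Gr1+CD11b+–primed over parental cells, was lost, leaving 0, with limma-voom, RLE, the replicate block, coding transcripts only, an adjusted p under 0.01 and a log2 fold change over 1. The members called lower there fell from 2 to 1 with coding transcripts only and with an adjusted p under 0.01. With single libraries left out, the count called higher ranged from 0 to 1 and that called lower from 1 to 2. *Cmpk2* over Spl-Gr1+CD11b+–primed cells was 2.89 with coding transcripts only, 3.03 with length offsets and 1.54 on log2(TPM + 1). The *Cmpk2* to *Rsad2* ratio differed by 2.24 with coding transcripts only, in place of 0.82, where Spl-Gr1+CD11b+–primed replicate 4 had no coding *Cmpk2* count. Of the tests of gene pairs, 0 passed with TPM, a prior count of 2 or coding transcripts only. The same numbers mark replicates in each group, but same-numbered libraries did not deviate together (correlations between −0.164 and 0.148), so the numbers were not taken as pairs. With the replicate block 7 members kept a higher call in both comparisons of Tu-Gr1+CD11b+–primed cells, and among the members' calls that of *Ifi27* (adjusted p = 0.0683) was the one that changed. A blocked test of the pair ratios was not run, since the smallest p that 4 pairs allow is 0.125. Depth limits *Ifitm1*, *Ifi27l2a* and *Rsad2*, and a filter of at least 10 counts in every library removed the last 2 from the test.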
